A study of Mus musculus with 2 samples.

Results

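Cells of the whole-tumour library of a mouse pancreatic tumour, sorted as live GFP+ cells but not on CD9, were chosen by their own RNA counts and ranked by Cd9 RNA, and the upper quartile was compared with the lower quartile, over all cells and among cells with a like amount of Vim RNA. The cells were 1821 of the 3082 barcodes of the whole-tumour library, and the series holds 8582 barcodes in all. A kept barcode had 500 or more genes detected, 5000 or more UMIs (unique molecular identifiers, each standing for 1 captured transcript) and no more than 20% mitochondrial UMIs. It also had at least 1 UMI of the epithelial gene Epcam, 0 of the leukocyte gene Ptprc and under 5000 CPM (UMIs scaled to a common total) of 7 acinar enzyme genes together, Prss2, Try5, Cpb1, Cel, Clps, Pnliprp1 and Pnliprp2. The mice, named KPFRR in the labels, carry Pdx1-Flp, a recombinase under a pancreatic promoter, with the alleles KrasFSF-G12D/+ and Trp53frt/frt that it acts on. They also carry Rosa26FSF-creER and the reporter Rosa26mTmG, and all groups compared here share these alleles. Live GFP+ cells were taken as the whole-tumour sample, and a second library held cells sorted for high surface CD9 from the same mouse line. Age, treatment, and whether both libraries came from 1 tumour are not given in the labels. Each population had 1 library, so the comparison has no replicate check and no test was made. All 95% intervals given are exact and cover counting error only.

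CD9 is a tetraspanin, a membrane protein with 4 spans that gathers integrins, immunoglobulin-type partners and growth factor precursors into surface microdomains and is abundant on exosomes. In pancreatic cancer, surface CD9 has been used to sort cells that start tumours. Vimentin, the product of Vim, is an intermediate filament of mesenchymal cells, and carcinoma cells that hold both epithelial and mesenchymal genes are said to be in a hybrid state of the epithelial-mesenchymal transition (EMT). The series concerns such a state, CD9 and the Notch ligand Jag1.

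Cd9 RNA was spread continuously over the cells, with no gap at the quartile limits. The values that follow chose the groups and are a description. The 456 cells of the lowest quartile had a median of 356 CPM (0 to 579, 21 cells with no Cd9 UMI), and the 455 cells of the highest had 2978 CPM (2109 to 13099). The medians of the quartiles between them were 839 and 1458 CPM. Just outside the limits, the next cell above the lowest quartile had 580 CPM and the next cell below the highest had 2106 CPM. Summed over cells, Cd9 was at 364, 828, 1513 and 3503 CPM from the lowest to the highest quartile.

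The quartiles were alike in depth and differed slightly in measures of RNA quality. Median UMIs per cell were 16736, 18211, 18289 and 18971 from low to high Cd9. The median mitochondrial share was 4.77% in the lowest and 3.27% in the highest quartile, and the ribosomal protein share was 18.0% and 14.1%. Ductal epithelial markers (10 genes, among them Epcam, Krt8, Krt18 and Krt19) were all detected, with summed levels of 28852 CPM in the lowest and 24675 CPM in the highest quartile. The cell rule required Epcam, so its detection was fixed in advance. The added GFP sequence had 0 UMIs in all kept cells, so the reporter could not be used to check the lineage. Only 1 barcode was shared by the kept cells of both libraries.

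Cells rich in the markers of another pancreatic cell type were concentrated in the Cd9-low group. At least 5000 CPM of such a marker list was found in 77 of 1821 cells, of which 61 lay in the lowest and 3 in the highest Cd9 quartile. The acinar list accounted for 38 of them (31 in the lowest quartile), the islet endocrine list for 32 (24), the tuft list for 7 (6) and the fibroblast list for 1 (1). The acinar list includes the 7 enzyme genes that the cell rule held under 5000 CPM. Summed islet markers were at 5707 CPM in the lowest and 5.42 CPM in the highest quartile, acinar markers at 1409 and 222 CPM, and fibroblast markers at 139 and 13.8 CPM. Their part in the results was not tested beyond leaving these cells out. Endothelial markers went the other way, at 4.21 and 60.3 CPM, with the defining genes Cdh5 and Emcn at 0 UMIs in both quartiles. Values without these 77 cells are given beside the results on secretory, hormone and collagen genes.

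Cells with more Cd9 RNA had more Vim RNA, whereas Epcam did not follow a single direction. Vim was at 156, 403, 1285 and 3602 CPM from the lowest to the highest Cd9 quartile. Of the highest quartile, 76.9% of cells lay in the upper Vim tertile, against 4.82% of the lowest. Epcam was at 1849, 2665, 2848 and 1841 CPM, highest in the middle quartiles. After thinning each cell to 5000 UMIs, the Spearman correlation with Cd9 across the 1821 cells was 0.59 for Vim and -0.03 for Epcam. Cells of 1 library share its depth and its tumour, so these correlations carry no test.

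**Figure D1:**
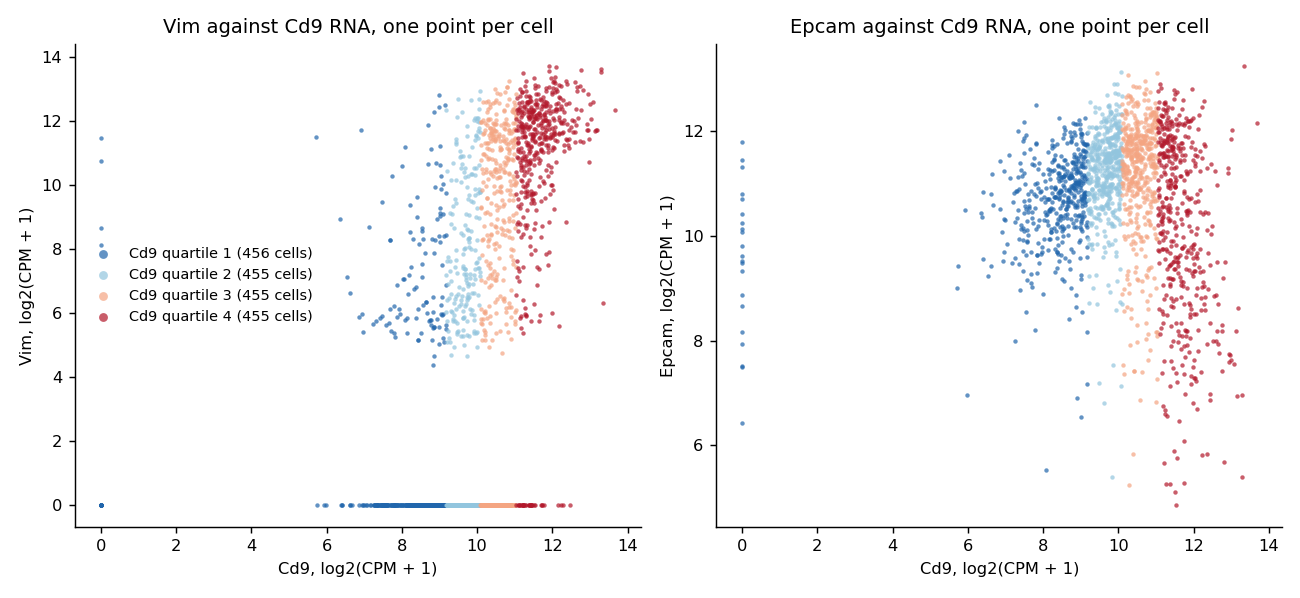
Vim (left) and Epcam (right) against Cd9 in each of the 1821 kept whole-tumour cells, both axes as log2(CPM + 1), coloured by Cd9 quartile. Of the highest Cd9 quartile, 76.9% of cells lie in the upper Vim tertile, whereas Epcam in that quartile spans both its lowest and its highest values.

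Because Vim differed this much, cells were also ranked by Cd9 inside each Vim tertile of 607 cells. The lower tertile had no Vim UMI. The middle tertile ranged from 0 to 853 CPM and held 182 more cells with no Vim UMI, placed there by file order. The upper tertile ranged from 861 to 13426 CPM. Joining the tertiles gave 453 Cd9-high and 456 Cd9-low cells, called Vim-balanced below, with Cd9 at 3041 and 554 CPM. The balance was partial, since Vim was still at 1885 against 1049 CPM. In the middle tertile it was at 282 against 77.8 CPM and in the upper tertile at 5094 against 2839 CPM.

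The overall comparison was broad. Of 9917 genes with a mean of at least 5 CPM, 1596 (16.1%) were at least 1.5-fold higher and 2195 (22.1%) at least 1.5-fold lower in the highest Cd9 quartile, with a median log2 ratio over all genes of -0.05. With Vim balanced, 545 of 9904 genes (5.5%) were higher and 1361 (13.7%) were lower, and the median over all genes was -0.07. Inside the lower, middle and upper Vim tertile, 14.8%, 12.6% and 5.81% of genes were higher and 16.3%, 18.7% and 19.7% lower. In all 3 tertiles, 123 of 8846 genes (1.39%) were higher and 289 (3.27%) lower. The tertiles hold different cells of 1 library and are not replicates.

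The 15 genes with the highest Vim-balanced ratio included the secreted factor genes Areg, Inhba and Pthlh. Areg encodes amphiregulin, a ligand of the EGF receptor. It was at 172, 331, 549 and 1052 CPM from the lowest to the highest Cd9 quartile. With Vim balanced it was at 963 against 208 CPM, a log2 ratio of 2.21 (2.13 to 2.28), and at 2.47, 2.30 and 2.09 in the lower, middle and upper Vim tertile. Its level was higher at each quartile and its ratio was nearly the same at every Vim level. Inhba, the activin A subunit, was at 18.3, 79.6, 144 and 271 CPM, with a balanced ratio of 1.58 (1.45 to 1.72). Pthlh, the parathyroid hormone-related peptide, was at 8.90, 36.0, 74.5 and 169 CPM and at 1.64 (1.45 to 1.83). For both genes the ratio was larger in the lower than in the upper tertile, at 3.38 and 1.05 for Inhba and at 3.00 and 1.34 for Pthlh.

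Among the 15 were also a protease inhibitor and a protease receptor. Timp1, an inhibitor of matrix metalloproteinases, was at 73.1, 148, 359 and 941 CPM over the Cd9 quartiles and at a balanced log2 ratio of 1.54 (1.47 to 1.62). Plaur, the urokinase receptor, was at 187, 275, 382 and 616 CPM and at 1.36 (1.27 to 1.44). Both were past 1.5-fold in every tertile. Fxyd5, a regulator of the sodium pump that lowers cell adhesion, was at 33.0, 74.3, 154 and 356 CPM and at 1.70 (1.57 to 1.83). Ggct, an enzyme of glutathione breakdown, was at 19, 33.9, 74.2 and 202 CPM and at 1.97 (1.79 to 2.16). Aldh1a3, a retinaldehyde dehydrogenase, was at 56.0, 88.9, 172 and 318 CPM and at 1.57 (1.44 to 1.69). Stmn2, a microtubule regulator best known from neurons, was at 29.9, 86.8, 177 and 523 CPM and at 1.59 (1.48 to 1.70).

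The chromatin proteins Hmga2 and Hmga1 were also among the 15. Hmga2 was at 56.5, 125, 289 and 464 CPM over the quartiles and at a balanced ratio of 1.77 (1.67 to 1.88), and Hmga1 was at 22.5, 37.8, 67.2 and 108 CPM and at 1.47 (1.26 to 1.68). Ratios of Hmga2 and Stmn2 were larger in the lower than in the upper Vim tertile, at 3.62 and 1.06 and at 3.64 and 1.27. The next 3 genes, also among the 15, were not past 1.5-fold higher in every Vim tertile. Npy, neuropeptide Y, was at 2.81 balanced and at -1.58, 0.93 and 5.61 in the lower, middle and upper tertile, and 10 cells held 56.3% of its UMIs in the Cd9-high group. Ctla2a, a cathepsin inhibitor, was at 2.49, with 4.78, 2.98 and 0.37 in the tertiles, and its level was highest in the third Cd9 quartile, at 462 CPM against 270 CPM in the highest. S100a14 was at 1.28, with 1.70, 1.44 and -0.76 in the tertiles.

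**Figure D2:**
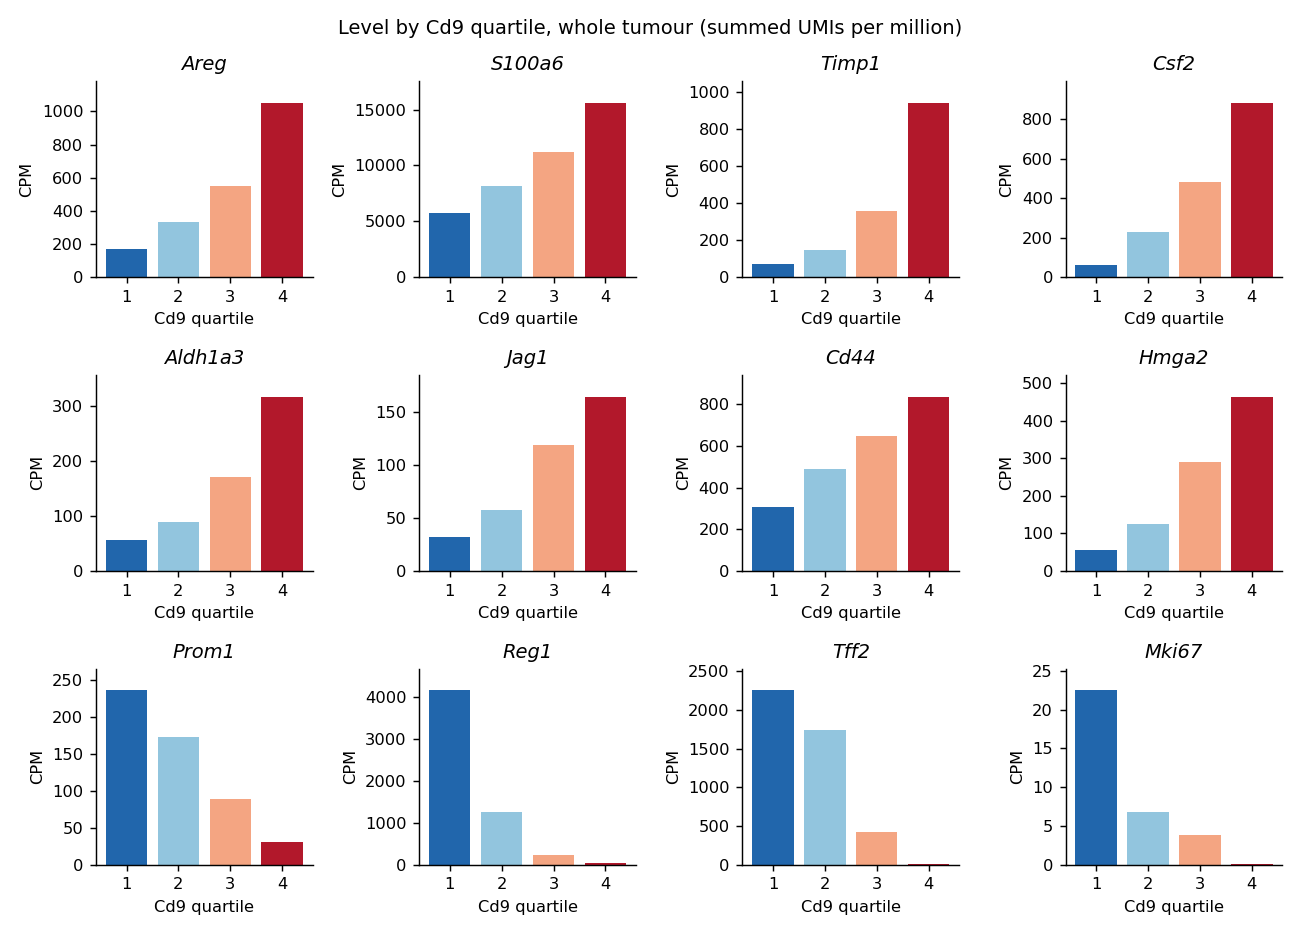
Level of 12 genes in the 4 Cd9 quartiles of the whole tumour, from the lowest (1) to the highest (4); bars are CPM of the summed UMIs of 1 library and have no replicate error. Areg goes from 172 to 1052 CPM and Jag1 from 31.6 to 164 CPM, while Prom1 goes from 236 to 31.3 CPM and Reg1 from 4159 to 45.9 CPM.

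Secretory genes of inflamed ducts were much lower in Cd9-high cells. Reg1, Reg3b and Reg3g are secreted lectins of the Reg family, and Dmbt1 is a mucosal defence glycoprotein. Reg1 was at 4159, 1271, 229 and 45.9 CPM from the lowest to the highest Cd9 quartile and at a balanced log2 ratio of -4.73 (-4.83 to -4.64). Reg3b was at 3087, 1097, 129 and 69.0 CPM and at -4.40 (-4.50 to -4.30). Dmbt1 was at 1557, 496, 112 and 21.5 CPM and at -4.26 (-4.39 to -4.13). Each step up in Cd9 came with a lower level of all 3. Reg3g was at -3.12 and Gsta3, a glutathione transferase, at -3.23. Counts of near-identical Reg genes can be split between copies and are uncertain. Without the 77 cells rich in other markers, Reg1 was at -4.05, Reg3b at -4.59, Dmbt1 at -4.06 and Gsta3 at -3.60.

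Islet hormone genes had most of the lowest ratios among genes with a mean of at least 50 CPM, and they rested on few cells. Gcg, Ppy, Ghrl, Iapp, Chga and Chgb, which encode glucagon, pancreatic polypeptide, ghrelin, amylin and the chromogranins, had balanced log2 ratios of -10.51, -10.22, -8.25, -8.55, -8.82 and -7.26. Of their UMIs in the Cd9-low group, 96.4% or more lay in 10 cells. Without the 77 cells the ratios of Gcg and Ppy were -0.31 and -0.02, those of Ghrl and Iapp -1.05 and -1.16, those of Chga and Chgb -0.02 and -0.31, and Pcsk1n, a prohormone convertase inhibitor at -7.22 with all cells, was at 1.36. Pyy, peptide YY, was at -3.94 with all cells, with 95.7% of UMIs in 10 cells, and at -0.75 without them. Ttr and Rbp4, which carry thyroid hormone and retinol, were at -4.94 and -3.26 and, without these cells, at -4.65 and -1.67.

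Other tetraspanins differed in both directions. Of 19 measured members of the tetraspanin list, Cd9 itself left out, 4 were higher and 4 lower with Vim balanced (median 0.19). Beside this and the 2 lists below stand 5.5% of all genes higher and 13.7% lower. Cd151, which binds laminin-binding integrins, was at 126, 205, 287 and 388 CPM over the Cd9 quartiles and at a balanced ratio of 0.88 (0.79 to 0.97). Cd82 and Tspan17 were at 0.86 and 0.82, and Tspan15 was at -0.88, though at 1.60 in the upper tertile. Among exosome tetraspanins chosen after their values were seen, Cd63 and Cd81 were at 0.27 and 0.26, short of 1.5-fold. Of 11 genes for CD9 partners, 1 was higher (median 0.23), the hyaluronan receptor gene Cd44 at 0.62 (0.56 to 0.68), from 308 to 836 CPM over the quartiles. The integrins Itgb1, Itga3 and Itga6 were at 0.50, 0.42 and 0.26. Hbegf, whose membrane precursor binds CD9, was at 0.23 after going from 723 to 1115 CPM over the quartiles. Exosome and vesicle sorting genes had 0 of 18 higher and 1 lower, Rab27a at -2.52, a GTPase of exosome release (median 0.17). In the lower tertile 1 of 18 was lower, and in the middle and upper tertiles 0 of 17. Over the alternatives tried, the number lower with Vim balanced was 0 to 1. The part of the marker-rich cells in the Rab27a ratio was not tested. Rab7, Flot1 and Tsg101 were at 0.56, -0.42 and 0.39.

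Some genes of Notch signalling were past 1.5-fold with Vim balanced, where 5.5% of all genes were higher and 13.7% lower. Jag1, a ligand, was at 31.6, 57.3, 119 and 164 CPM over the Cd9 quartiles, an overall log2 ratio of 2.37. With Vim balanced it was at 111 against 69.3 CPM, or 0.68 (0.53 to 0.84). The ratio was 1.91 and 1.56 in the lower and middle Vim tertile and 0.10 in the upper tertile. Among the cells richest in Vim in this library, the Jag1 level thus hardly followed Cd9. The upper tertile of the CD9hi library began at 5433 CPM of Vim, against 861 CPM here. There 1 of 4 measured ligands and receptors was higher, at 0.60. With that library balanced for Vim, the 1 member that was higher was Jag1, at 0.86. The difference between tertiles was not tested. Dll4, also a ligand, was at 0.69 with 53.3% of its UMIs in 10 cells, and the receptors Notch2 and Notch1 were at 0.34 and 0.03. Of 4 measured ligands and receptors 2 were higher and 0 lower (median 0.51). Of 18 regulators and targets, 2 were higher, the feedback inhibitor Nrarp at 1.10 and Numbl at 0.67, and 1 lower, the ubiquitin ligase Dtx3 at -1.95 (median 0.01), with the coactivator Maml3 at -0.41. Sox9, a ductal progenitor factor, was at 0.23. When cells were balanced for both Vim and Epcam, Jag1 was at 0.50 and Cd44 at 0.35, both short of 1.5-fold.

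Markers used for pancreatic tumour-initiating cells did not move in 1 direction. Of 18 measured, 5 were higher and 4 lower with Vim balanced (median -0.02), where 5.5% of all genes were higher and 13.7% lower. Abcb1a, a drug efflux pump, was at 3.01, 6.44, 18.9 and 66.4 CPM over the quartiles and at a balanced ratio of 2.29 (1.93 to 2.68), and Aldh1a3 was described above. On the other side Prom1, which encodes CD133, was at 236, 173, 89.7 and 31.3 CPM and at -1.38 (-1.52 to -1.25), and it was lower in every Vim tertile, at -1.20, -1.50 and -2.15. Dclk1, a kinase of tuft and progenitor cells, was at 109, 44.3, 21.9 and 16.3 CPM and at -2.25, with -0.22 in the upper tertile. The tuft marker list was at 186 CPM in the lowest and 19.8 CPM in the highest quartile. It includes Dclk1, which made up most of these sums, so it is not separate from the Dclk1 result. Of the Dclk1 UMIs of the Cd9-low group, 42.2% lay in 10 cells. The part of tuft cells in the Dclk1 result was not tested.

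Epithelial genes depended on the Vim level. Without regard to Vim, 20 of 29 measured epithelial identity genes were lower in the highest Cd9 quartile and 0 higher (median -1.04). With Vim balanced, 4 were lower and 1 higher (median -0.11). Of all genes, 22.1% were lower and 16.1% higher without balancing, and 13.7% and 5.5% with Vim balanced. Tjp3, a tight junction scaffold, was at -1.41, Cdh3 (P-cadherin) at -0.99 and the epithelial transcription factors Elf3 and Ehf at -0.90 and -0.71. Inside the tertiles the list went from 5 higher and 1 lower of 29 in the lower tertile (median 0.10) to 0 higher and 20 lower of 24 in the upper tertile (median -0.96). All genes were 14.8% higher and 16.3% lower in the lower tertile, and 5.81% and 19.7% in the upper tertile. Epcam, part of the cell rule, had the same order. Its median per cell was 3187 CPM in Cd9-high and 1436 CPM in Cd9-low cells of the lower tertile, 3596 and 1763 CPM in the middle tertile, and 643 and 1496 CPM in the upper tertile. The log2 ratios of its sums were 1.12, 0.91 and -0.76.

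Keratins had the same pattern. Krt7 was at 0.99, 0.94 and -1.42 in the lower, middle and upper tertile, Krt8 at 0.54, 0.49 and -0.94, Krt18 at 0.60, 0.56 and -0.47 and Krt19 at 0.32, 0.30 and -0.98. With the tertiles joined these were at 0.18, 0.11, 0.23 and 0.06. Of 9 measured keratins 1 was higher, Krt23 at 1.08, and 1 lower, Krt14 at -1.40 with 85.2% of UMIs in 10 cells (median 0.18). The shares over all genes were 5.5% higher and 13.7% lower. Krt20 and Krt17 were at 0.33 and 0.32. Across single cells, the Spearman correlation of Cd9 with the summed epithelial list was 0.34, 0.25 and -0.35 in the lower, middle and upper tertile. The CD9hi library did not show this fall in its upper Vim tertile, which began at 5433 CPM of Vim against 861 CPM here. In that tertile 2 of 21 epithelial genes were higher and 1 lower (median 0.16), and keratins had a median of 0.19. There 3.63% of all genes were higher and 6.26% lower. Epcam was at 807 CPM in its Cd9-high and 607 CPM in its Cd9-low cells, and the epithelial list correlation was -0.01.

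Over all genes, 219 of 8846 (2.48%) were higher in the lower and lower in the upper Vim tertile, and 40 (0.452%) were the reverse. Matrix genes were among the 219. Tnc, the matrix glycoprotein tenascin C, was at 172 against 7.04 CPM in the lower tertile and at 416 against 1446 CPM in the upper tertile. Fn1, fibronectin, was at 1700 against 429 CPM and at 2415 against 4701 CPM. Ccn2, a target of YAP and TGF-beta, was at 307 against 144 CPM and at 257 against 612 CPM. In each case the Cd9-high cells without Vim had more than the Cd9-low cells, and the Cd9-high cells with much Vim had less. Vegfa, at 2.02 and -1.01, and Sox11, at 1.87 and -0.88, did the same. Timp3 and the chemokine gene Cxcl2 went the other way, at -0.76 and 1.95 and at -1.25 and 1.83. These genes were chosen after their values were seen.

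Mesenchymal genes followed Cd9 overall and much less with Vim balanced. Of 17 measured members, Vim left out, 12 were higher and 1 lower overall (median 1.3), and with Vim balanced 3 of 18 were higher and 7 lower (median -0.17). Of all genes, 16.1% were higher and 22.1% lower without balancing, and 5.5% and 13.7% with Vim balanced. In the lower tertile 12 of 16 were higher (median 1.17) and in the upper tertile 10 of 19 lower (median -0.72). The shares over all genes there were 14.8% and 19.7%. Fbn1, Tagln, Fstl1 and Sparc, which encode fibrillin, transgelin, follistatin-like 1 and osteonectin, had the largest balanced ratios, at -3.22, -2.34, -1.85 and -1.47. Against these, S100a4 was at 1.13 and the receptor kinase gene Axl, at 5.41, 10.1, 27.1 and 62.2 CPM over the quartiles, was at 1.11 (0.82 to 1.42). Of 13 collagen and matrix genes 2 were higher and 7 lower (median -0.65). Col3a1, Col1a1, Dcn and Col1a2 were at -8.15, -5.18, -5.15 and -4.83, and 95.7% or more of their UMIs in the Cd9-low group lay in 10 cells. The Cd9-low cells of the upper Vim tertile included 1 cell with 49763 CPM of fibroblast markers. The part of this cell and other marker-rich cells in the lower mesenchymal genes, Fbn1, Tagln, Fstl1 and Sparc among them, was not tested. Without the 77 cells, 2 of 9 measured collagen genes were higher and 2 lower (median 0.09).

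EMT transcription factors were mostly higher with Cd9. Of 5 measured, 4 were higher overall (median 3.00) and 3 with Vim balanced (median 0.63), with 0 lower in either. The share of all genes that was higher was 16.1% without balancing and 5.5% with Vim balanced. Hmga2 was described above. Twist1 was at 6.73, 14.4, 25 and 59.1 CPM over the quartiles and at a balanced ratio of 1.54 (1.24 to 1.86), with 1.56 in the upper tertile. Zeb1 and Zeb2, which repress E-cadherin, were at 0.63 (0.29 to 0.98) and 0.49 (0.21 to 0.77) and, in the upper tertile, both at -0.03.

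The laminin chain genes Lama3 and Lamb3 and the integrin gene Itgb4, which serve the anchoring of epithelium to its basement membrane, were higher in the lower and middle Vim tertiles. Among 17 measured genes of the laminin and integrin list, 2 were past 1.5-fold with Vim balanced, both higher (median 0.26). The shares over all genes were 5.5% higher and 13.7% lower. Lama3 was at 1.09 (0.93 to 1.25), while Lamb3 and Itgb4 were at 0.56 and 0.56. In the lower and middle tertile Lama3 was at 1.78 and 1.95, Lamb3 at 0.72 and 1.26 and Itgb4 at 0.78 and 1.06. In the upper tertile they were at -0.65, -0.26 and 0.06. Of 17 genes for proteases and their inhibitors 5 were higher and 2 lower (median 0.21). Mmp10, at 10.3 CPM in the highest quartile, was at 4.56, with 88.0% of UMIs in 10 cells, Mmp7 was at -2.52, and Timp1 and Plaur were described above.

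Classical subtype genes, which mark gastric-type pancreatic cancer, were lower in Cd9-high cells. Without regard to Vim, 22 of 23 measured were lower and 0 higher (median -2.54), and with Vim balanced 13 were lower and 3 higher (median -0.92). For all genes the shares were 22.1% lower and 16.1% higher, and 13.7% and 5.5% with Vim balanced. Tff2, a trefoil factor of gastric mucus, was at 2251, 1746, 422 and 11.4 CPM over the quartiles and at a balanced ratio of -2.69 (-2.76 to -2.62). Lgals4 was at 601, 286, 107 and 8.19 CPM and at -2.40, Vsig2 was at -1.88 and the endoderm factor Gata4 at -1.81. These 4 were lower in every tertile. Another trefoil factor gene, Tff1, was higher with Vim balanced, at 0.97 (0.91 to 1.03), and 10 cells held 97.2% of its UMIs in the Cd9-high group. It was at 2.27, -2.09 and -6.18 in the lower, middle and upper tertile. Balanced for both Vim and Epcam, 7 of 24 were lower and 6 higher (median -0.09). Mucin and secretory genes had 12 of 15 lower and 1 higher (median -2.22), with Pigr, the transporter of mucosal antibodies, at -4.54 beside the Reg genes and Dmbt1.

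Among 11 measured basal subtype genes, 3 were higher and 2 lower with Vim balanced (median 0.35). For all genes the shares were 5.5% higher and 13.7% lower. Areg is in this list and in that of EGF receptor and MAPK output. Krt14, Ly6d and Krt16 were at -1.40, 1.14 and -0.83, with 62.8% or more of their UMIs in 10 cells. Pancreatic lineage factors had 6 of 14 lower and 0 higher (median -0.44), led by Ptf1a at -3.97, an acinar marker, then Gata4 and Nr5a2 at -1.68.

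S100 and annexin genes had the highest correlation with Cd9 across cells among the 34 lists. Of 20 measured, 7 were higher and 3 lower with Vim balanced (median 0.40), against 5.5% and 13.7% of all genes. S100a6, a calcium-binding protein, was the most abundant, at 5717, 8178, 11222 and 15608 CPM over the quartiles, and at a balanced ratio of 1.16 (1.15 to 1.18), with 1.21, 1.02 and 1.26 in the tertiles. S100a4 and S100a14 were given above, and Anxa13, an annexin of polarised epithelia, was at -1.68. Anxa2 and Anxa5, chosen after their values were seen, were at 0.86 and 0.80. The Spearman correlation of the summed list with Cd9 was 0.60 over all thinned cells and 0.52, 0.45 and 0.50 in the lower, middle and upper tertile. 

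Of 26 measured genes of EGF receptor and MAPK output 9 were higher and 1 lower (median 0.28). Of all genes, 5.5% were higher and 13.7% lower. Beside Areg, epiregulin (Ereg) was at 17.2, 22.9, 28.7 and 43.7 CPM over the quartiles and at 1.10 (0.83 to 1.39), and Tgfa was at 14.8, 21.6, 21.4 and 30.3 CPM and at 0.98 (0.65 to 1.32). Btc was at 0.61 and the receptor gene Epha4 at 0.70. Spry1, an inhibitor of the pathway, was the member that was lower, at -0.62. Of 21 TGF-beta response genes 2 were higher, Inhba and Tgfb1 at 1.19 (1.05 to 1.33), and 4 lower, among them Ltbp2 at -1.50 and Smad6 at -1.09 (median -0.01). YAP targets had 2 of 17 higher, Axl and Nt5e at 0.88, and 4 lower, among them Wwc1 at -0.97 and Amotl2 at -0.78 (median -0.46). Of 18 genes for Wnt ligands and Lgr receptors, 3 were higher and 3 lower (median -0.16), with Wnt10a at 2.66 and Lgr6 at 1.08 against the stem cell receptor Lgr4 at -1.78 and Wnt4 at -1.61.

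Summed counts of most proliferation genes were lower in Cd9-high cells, except in the upper Vim tertile of the whole tumour. Of 21 measured, 18 were lower overall (median -1.91) and 17 with Vim balanced (median -1.04), with 0 higher in either. Of all genes, 22.1% were lower without balancing and 13.7% with Vim balanced. Mki67 was at 22.5, 6.78, 3.78 and 0.115 CPM over the quartiles and at a balanced ratio of -2.86 (-3.67 to -2.20), and Top2a, Birc5 and Mcm5 were at -1.91, -1.65 and -1.37. Mitotic genes are carried by few cells, and 85.7% of the Mki67 UMIs of the Cd9-low group lay in 10 cells. After thinning to 5000 UMIs, the share of cells with at least 5 UMIs of the list was 10.7% (8.06 to 13.96) in the lowest quartile, then 5.27%, 3.96% and 2.42% (1.21 to 4.28) in the highest. Without thinning the share of cells at that threshold was 49.1% and 50.5%. In the Vim-balanced groups the thinned share was 4.42% (2.72 to 6.74) in Cd9-high and 9.21% (6.72 to 12.2) in Cd9-low cells. It was 5.30% and 9.21% in the lower tertile, 4.64% and 15.8% in the middle tertile, and 3.31% and 2.63% in the upper tertile, where the intervals overlap and the order is the reverse. In that tertile 4 of 12 proliferation genes were lower and 0 higher (median -0.42), where 19.7% of all genes were lower. The upper Vim tertile of the CD9hi library, which began at a higher Vim level, had 14 of 17 lower (median -1.27). Its thinned share was 2.27% in Cd9-high and 6.45% in Cd9-low cells. From cell to cell, the Spearman correlation of the proliferation list with Cd9 was -0.05 over the 1821 cells and -0.03, -0.03 and 0.03 in the Vim tertiles, as a description over cells of 1 library. Balanced for Vim and Epcam, 9 of 18 proliferation genes were lower (median -0.57).

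**Figure D3:**
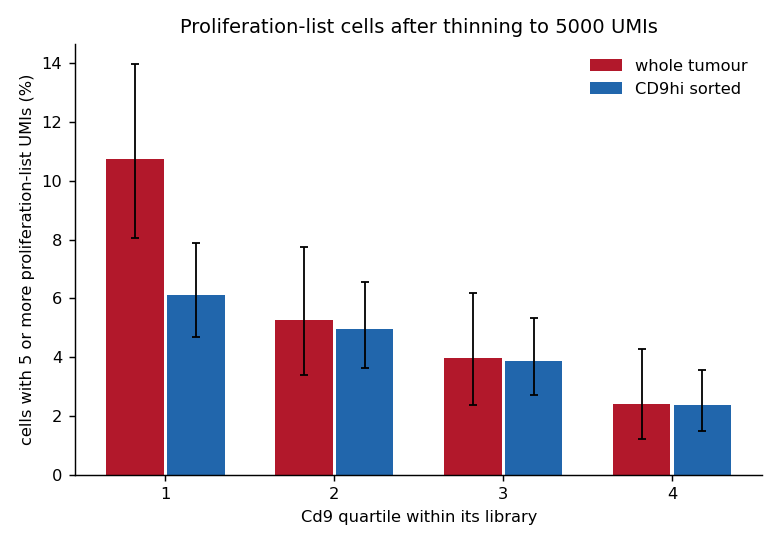
Share of cells with at least 5 UMIs of the proliferation list after thinning each cell to 5000 UMIs, by Cd9 quartile within each library; lines are exact 95% binomial intervals for counting error. The share goes from 10.7% to 2.42% in the whole tumour and from 6.13% to 2.37% in the CD9hi library.

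Interferon response genes were also lower. Of 14 measured, 8 were lower and 1 higher with Vim balanced (median -0.81), against 13.7% and 5.5% of all genes. Ifitm1, Isg15, Rtp4 and Ifi27 were at -2.65, -2.16, -1.62 and -1.56. Of the Ifitm1 and Isg15 UMIs of the Cd9-low group, 77.2% and 75.8% lay in 10 cells, against 20.6% for Ifi27. The thinned share of cells with at least 5 UMIs of this list was 59.2% (54.5 to 63.7) in Cd9-high and 60.7% (56.1 to 65.3) in Cd9-low cells, with overlapping intervals, and the list summed to 1246 and 1492 CPM. Of 6 measured genes for antigen presentation, 2 were lower and 0 higher (median -0.30), Cd74 at -2.13 and Psmb8 at -1.72, with Tapbp and H2-K1 at -0.34 and -0.26. Cytokine and NF-kB genes split, with 2 of 27 higher and 7 lower (median -0.09). Csf2, the cytokine GM-CSF, was at 63.4, 229, 482 and 883 CPM over the quartiles and at 1.25 (1.17 to 1.33), and Il1a was at 1.41. C3, Cxcl10 and Cxcl5 were at -3.22, -2.76 and -1.77.

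Metabolic lists differed among themselves with Vim balanced, where 5.5% of all genes were higher and 13.7% lower. Glycolysis genes had 10 of 18 higher overall (median 0.60) and 2 of 17 with Vim balanced (median 0.33), Pkm at 0.70 (0.66 to 0.75) and Gapdh at 0.63 (0.60 to 0.66), while Hk2 was at 0.50 and Aldoc at -1.87. Hypoxia response genes had 5 of 16 higher and 2 lower (median 0.23), from Hilpda, a lipid droplet protein, at 1.23 and Ankrd37 at 1.17 to Car9 at -1.59 and Pdk1 at -2.20. Amino acid metabolism had 7 of 21 higher and 2 lower (median 0.11), with the serine and folate enzymes Mthfd2, Psph and Phgdh at 1.06, 1.03 and 0.83 against Shmt1 at -0.99. Respiratory chain genes had 0 of 28 higher and 0 lower (median -0.04), from Ndufa1 at -0.42 and Ndufb5 at -0.40 to Ndufa2 at 0.30. Lipid and cholesterol genes had 0 of 18 higher and 3 lower (median -0.04), Acaca at -0.87, Scd2 at -0.79 and Srebf1 at -0.78, all of fatty acid synthesis, with the sterol enzyme gene Sqle at 0.52.

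Immediate early, heat shock and unfolded protein genes had medians near that of all genes, -0.07. With Vim balanced, 5.5% of all genes were higher and 13.7% lower. Of 24 measured immediate early or heat shock genes, 1 was higher and 4 lower with Vim balanced (median -0.10), the chaperones Hspa1b and Hspa1a at -1.08 and -0.95 and the regulators Zfp36 and Socs3 at -0.88 and -0.72. Among 21 genes of the response to unfolded protein, 2 were higher and 2 lower (median 0.04), with the secretory factor Xbp1 at -1.29, Herpud1 at -0.63, Chac1 at 0.66 and Edem1 at 0.63. Among 14 measured genes of the p53 target list 4 were higher and 1 lower (median 0.20). Cdkn1a, the inhibitor p21, was at 118, 191, 210 and 230 CPM over the quartiles and at 1.02 (0.91 to 1.13). Phlda3 was at 0.95 and Zmat3 at -0.72. Cdkn2a, a list member that acts upstream of p53 and is not its target, was at 0.73. The list median was 0.53, 0.32 and -0.17 in the lower, middle and upper Vim tertile, and the difference between tertiles was not tested. Trp53 gave 173, 200, 214 and 220 CPM over the quartiles, and a count of 3′ ends cannot show whether the exons between the frt sites were removed.

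**Figure D4:**
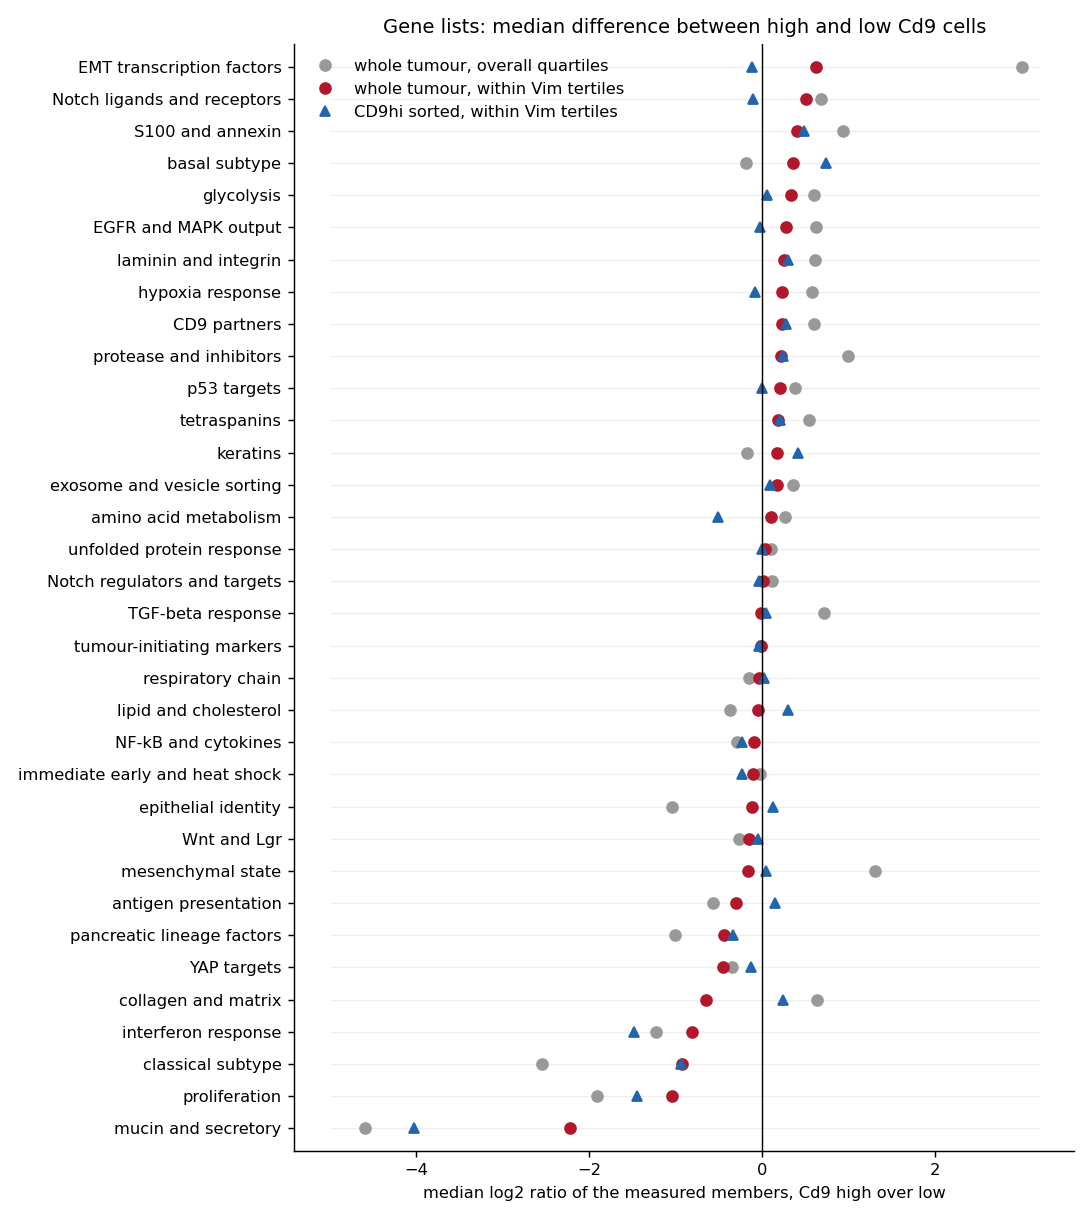
Median log2 ratio, Cd9 high over low, of the measured members of 34 gene lists, for overall quartiles (grey) and Vim-balanced quartiles (red) of the whole tumour and Vim-balanced quartiles of the CD9hi library (blue triangles). The EMT transcription factor median is 3.00 overall and 0.63 with Vim balanced, and the proliferation, classical, mucin and interferon medians are below 0 in all 3 comparisons.

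The CD9hi library was not used to choose the cells, so it shows how far the same ranking gives the same genes in other cells. The cell rule kept 3718 of its 5500 barcodes, with Cd9 at 1074 CPM in the lowest and 4035 CPM in the highest quartile, and a Vim-balanced ratio of 1.90. Its lowest quartile thus lay between the second and the third quartile of the whole tumour. Cells without Vim are rare in it (120 of 3718), and Vim differed by 0.06 between its balanced groups. Fewer genes were past 1.5-fold, with 198 of 9403 (2.11%) higher and 632 (6.72%) lower in the Vim-balanced comparison. Without balancing, 2.18% were higher and 7.07% lower. Inside its lower, middle and upper Vim tertile 3.12%, 2.83% and 3.63% were higher and 13.5%, 7.96% and 6.26% lower, and in all 3 tertiles 0.845% were higher and 1.87% lower.

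Of genes measured in both libraries, 528 were higher with Vim balanced in the whole tumour and 161 in the CD9hi library, and 88 were higher in both, which is 16.7% of the first and 54.7% of the second. Only 10 of the 528 were past 1.5-fold in the opposite direction, and 79.4% had the same sign, where 35.1% of all genes had that sign. Of genes that were lower, 868 and 576, 298 were shared (34.3% and 51.7%), 13 were opposite, and 88.7% had the same sign, against 64.9% of all genes. Genes within a library are not independent, and no test was made.

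Some leading genes of the whole tumour kept their direction in the CD9hi library at smaller ratios, and others were short of 1.5-fold there. Inhba was at 1.19 (1.13 to 1.25), Stmn2 at 1.14, Fxyd5 at 1.11, Timp1 at 0.93, Pthlh at 0.94, Aldh1a3 at 0.84, Ggct at 0.81, S100a6 at 0.70. Plaur, at 0.57, was short of 1.5-fold. Jag1 was at 0.86 (0.79 to 0.93), from 116 to 209 CPM, above its 0.68 in the whole tumour, and Prom1 at -1.11 (-1.27 to -0.95), from 49.5 to 21.5 CPM. Areg was at 0.41 (0.38 to 0.44), short of 1.5-fold, Hmga1 was at 0.16 and Hmga2 at -0.15 (-0.19 to -0.12). The EMT factors Twist1, Zeb1 and Zeb2 were at 0.05, -0.07 and -0.09, so that 0 of 8 EMT factors were higher in this library.

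Several lists went the same way in both libraries with Vim balanced. Of all genes measured in the CD9hi library, 2.11% were higher and 6.72% lower. In the CD9hi library 17 of 20 proliferation genes were lower (median -1.45), 12 of 17 interferon genes (median -1.48), 11 of 18 classical genes (median -0.93) and 6 of 8 mucin and secretory genes (median -4.02). S100 and annexin genes had 8 of 19 higher and 0 lower (median 0.48). The laminin and integrin list had 5 of 18 members higher and 0 lower (median 0.30), with Lama3 and Lamb3 at 1.60 and 1.43. In the upper Vim tertile of the CD9hi library 7 of 17 of its genes were higher and 0 lower (median 0.41). In that of the whole tumour 0 of 17 were higher and 2 lower (median -0.22). These upper tertiles began at unlike Vim levels, 5433 CPM in the CD9hi library and 861 CPM in the whole tumour. Basal genes had 6 of 10 higher and 2 lower (median 0.74). Amino acid metabolism differed, with 0 of 20 higher and 8 lower (median -0.51), Phgdh at -0.77 and Mthfd2 at -0.66. Of EGF receptor and MAPK output genes 1 of 26 was higher and 1 lower (median -0.02).

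Past 1.5-fold in every Vim tertile of both libraries were 20 genes with higher and 24 with lower levels in Cd9-high cells, of 8321 measured in all, Cd9 left out. The 20 higher genes were Ackr3, Pkn3, Timp1, Stmn2, S100a6, Abcb1a, Pthlh, Mturn, Ggct, Emp1, Srgap3, Klk8, Aldh1a3, Fxyd5, Csf2, Inhba, Ttc9, Tafa5, Jam2 and Pla2g7. Emp1, an epithelial membrane protein with 4 spans, was at 336, 539, 740 and 1109 CPM over the whole-tumour quartiles and from 777 to 1367 CPM in the CD9hi library. Jam2, a junctional adhesion molecule, was at 3.13, 13.3, 54.2 and 113 CPM and from 37.8 to 121 CPM. Ackr3, a scavenging receptor of the chemokine CXCL12, was at a balanced ratio of 1.55 in the whole tumour and 1.29 in the CD9hi library. Pla2g7, an enzyme that inactivates platelet-activating factor, was at 2.54 and 0.90.

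The 24 lower genes were Mcm3, Phyh, Mdk, Dtd1, Fabp5, Tm4sf4, Clca3a1, Hmgn2, Hook1, Rars2, Scarb1, Auts2, Samd9l, Rrm1, Ank3, Gsta4, Irgm1, Lgals9, Trim25, Zfp36l1, Phldb2, Dync2li1, Smarca2 and Fads2. Mcm3 and Rrm1 serve DNA replication, and Samd9l, Irgm1, Trim25 and Lgals9 are interferon-inducible. Gsta4, a glutathione transferase, was at 1028, 814, 429 and 50.2 CPM over the whole-tumour quartiles and from 152 to 25.3 CPM in the CD9hi library. Tm4sf4, a membrane protein with 4 spans, was at 478, 387, 244 and 70.5 CPM and from 64.7 to 28.6 CPM. Mdk, the growth factor midkine, was at -3.24 (-3.81 to -2.76) and -1.29.

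**Figure D5:**
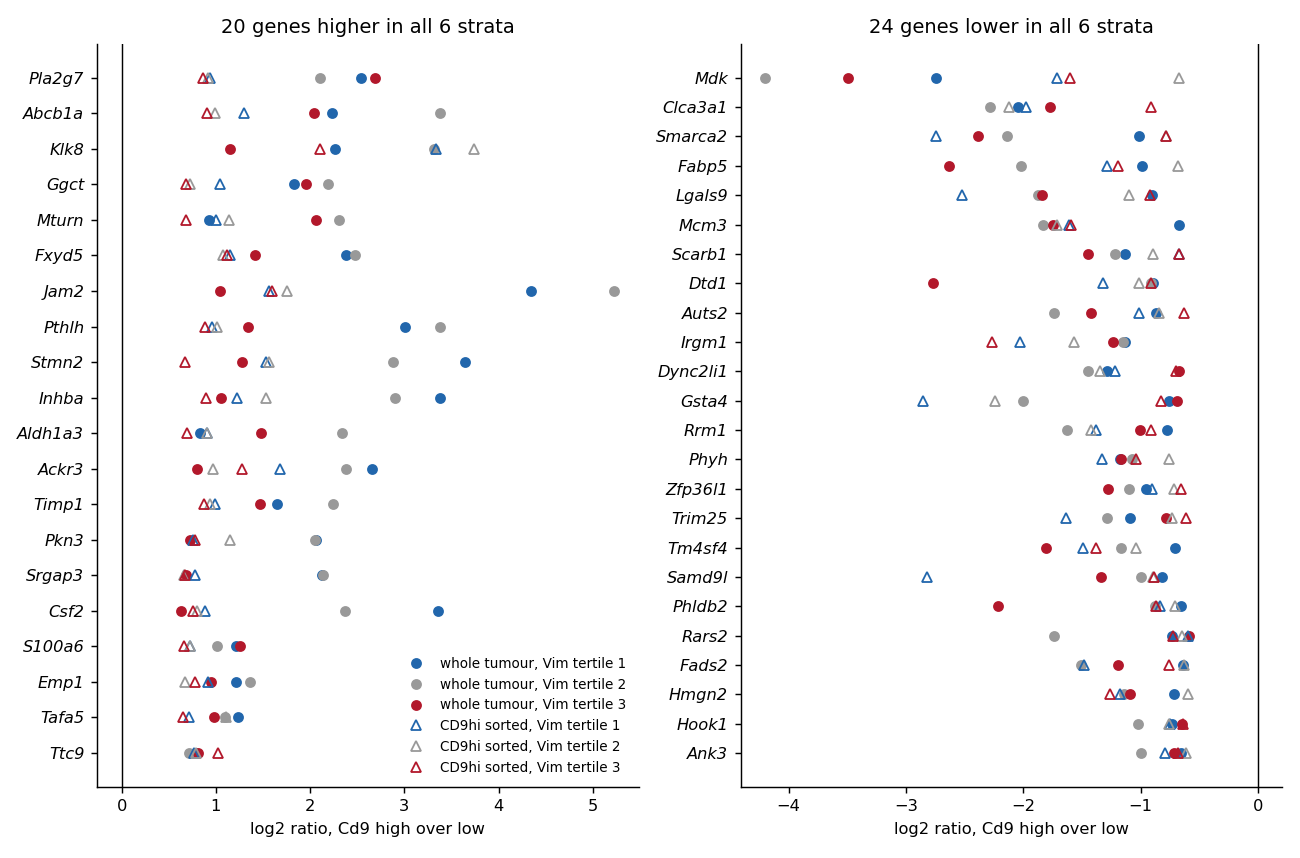
Log2 ratio, Cd9 high over low, of the 20 genes higher (left) and 24 genes lower (right) in every Vim tertile of both libraries; filled circles are the whole tumour, open triangles the CD9hi library, and colours the Vim tertiles. Each point rests on summed UMIs of 1 group of cells, and all points lie past 1.5-fold because that chose the genes.

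Promoter sequences are shown for 3 genes to let the reader see what stands before genes that followed Cd9 in every stratum, the ranked gene itself, the membrane protein gene Emp1 and the cytokine gene Csf2. Each line gives the 250 bases before the annotated start, 5′ to 3′ on the gene's own strand, from RefSeq on GRCm38.p6, which is an older build than that of the counts. Capitals mark CAGGTG or CACCTG (an E-box bound by Zeb and Snail factors), GGGCGG or CCGCCC (a GC box), TGANTCA and TATAAA or TTTATA, each as read on both strands. TGANTCA is a loose form of the AP-1 site, with any base at N, so a match need not be an AP-1 site. Cd9 is on the minus strand at chr6:125494761-125495010, Emp1 on the plus strand at chr6:135362681-135362930 and Csf2 on the minus strand at chr11:54249900-54250149.
Cd9: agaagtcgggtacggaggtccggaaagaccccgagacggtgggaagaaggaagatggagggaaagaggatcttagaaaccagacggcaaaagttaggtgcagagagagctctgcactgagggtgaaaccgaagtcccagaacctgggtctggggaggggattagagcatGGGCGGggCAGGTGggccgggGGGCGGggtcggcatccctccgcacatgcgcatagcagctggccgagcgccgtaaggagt
Emp1: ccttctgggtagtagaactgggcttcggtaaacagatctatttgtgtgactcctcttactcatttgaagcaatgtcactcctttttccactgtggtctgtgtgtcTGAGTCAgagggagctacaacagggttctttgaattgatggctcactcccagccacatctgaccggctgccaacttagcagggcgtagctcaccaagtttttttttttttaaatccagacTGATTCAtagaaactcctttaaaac
Csf2: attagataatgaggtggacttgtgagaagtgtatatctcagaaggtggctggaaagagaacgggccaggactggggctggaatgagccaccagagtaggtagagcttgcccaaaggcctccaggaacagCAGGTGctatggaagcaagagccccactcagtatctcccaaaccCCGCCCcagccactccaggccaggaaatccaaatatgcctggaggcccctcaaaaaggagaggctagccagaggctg

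The Cd9 window held 1 E-box and 2 GC boxes and neither of the other motifs, Emp1 held 2 AP-1 motifs, and Csf2 held 1 E-box and 1 GC box. Of the 20 higher genes 17 had a promoter entry, and so did 17 of the 24 lower genes. The E-box was found in 2 of 17 higher, 5 of 17 lower and 17.1% of all 27025 promoters, and the GC box in 12, 11 and 32.9%. The TGANTCA pattern was found in 2, 2 and 6.87%, and the TATA motif in 4, 1 and 3504 of all. No test was made, and a match is a description of these letters.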

How the data were processed

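The authors deposited, per the file headers, 1 sparse matrix of raw UMI counts for the whole tumour and 1 for the CD9hi cells. The submitters' processing notes name Cell Ranger 7.0.0 and GRCm39, but each matrix header names version 6.1.2. It is not stated in the labels whether intronic reads were included. The files held 55361 features. Doublets were not removed.

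Cells were chosen and ranked by the rule given above, with ties in file order. Counts were summed over each group and divided by the group's total (CPM). Log2 ratios of these sums had 0.5 counts added to each, with exact conditional binomial 95% intervals for counting error. Genes with a mean of at least 5 CPM counted as measured, and those past 1.5-fold as higher or lower, a rule of size with no test, because cells of 1 library are not replicates. The 15 highest and 15 lowest Vim-balanced genes at a mean of at least 50 CPM were named, with Cd9, Epcam, Vim, Jag1, Cd44 and Prom1, and the 4 measured members of each list with the largest ratios. Other genes were named after their values were seen. A few genes that this rule selects are not reported here. Of 679 list genes 676 matched a feature. The members and lists were chosen with earlier results of these data known. Scripts used Python 3.11.15, numpy 2.4.6, scipy 1.17.1 and pandas 2.3.3 and were tested on simulated data. Alternatives are in the closing section.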

Additional observations from a re-analysis of the deposited data

How the results depend on the processing

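There was 1 library per population, so no library could be left out. No paired analysis was possible because each group had 1 library and the result comes from no test. Over the alternatives tried, 257 of 312 counts of genes past 1.5-fold stayed within 1.5 times their value. List medians moved by 0.1 or more, on the log2 scale, in 826 cases and stayed closer in 2632, and ratios of named genes left their counting interval in 1128 cases and stayed within it in 2527. Counts are given below as higher and lower genes, and the cause of each shift was not tested unless the setting itself tests more or fewer genes. With no low-value filter, the whole tumour had 4917 and 9020 genes over all cells, 3654 and 7438 Vim-balanced and 363 and 1436 in every Vim tertile, and the CD9hi library 3767 and 7149, 3736 and 7078, and 318 and 940. With a mean of at least 20 CPM these were 1052 and 813, 333 and 376, and 70 and 67, and in the CD9hi library 111 and 191, 108 and 190, and 45 and 42. Comparing the upper and lower 10% gave 984 and 2099 Vim-balanced and 243 and 456 in every tertile, and in the CD9hi library 373 and 1586 over all cells, 366 and 1492 and 121 and 397. With no limit on acinar genes the whole tumour had 3566 and 1288 over all cells, 2120 and 600 Vim-balanced and 319 and 192 in every tertile. Vim quintiles gave 56 and 91 in every stratum, and 48 and 78 in the CD9hi library. Tertiles of the epithelial list gave 1462 higher, and 686 and 881 in every stratum. Overall quartiles crossed with Vim tertiles gave 1104 higher, and 342 and 496 in every stratum. Centred on the median, the CD9hi library had 319 higher genes overall and 303 Vim-balanced. Its genes lower in every tertile numbered 106 for the upper and lower 33.3%, 262 with no Epcam requirement and 110 without the 25% of cells richest in proliferation genes.

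Of the list medians and hormone-gene ratios past 1.5-fold as reported, 10 and 17 values changed sign. Values nearer 0 also crossed it, with Vim balanced in the whole tumour: the YAP target median (-0.46) was 0.27 and the pancreatic lineage median (-0.44) 0.04 with no limit on acinar genes, where the NF-kB median (-0.09) was 0.70, the mesenchymal state median (-0.17) was 1.03 in tertiles of the epithelial list, and Epcam (0.57) was at -0.19 in tertiles of the mesenchymal list. The proliferation median (-1.04) ranged from -1.64 to -0.11 and the median of EMT transcription factors (0.63) from 0.22 to 2.70, both without a change of sign. The Notch ligand and receptor median was -1.75 overall with no low-value filter. The collagen and matrix median was -0.60 overall for the upper and lower 10% and -0.23 when cells were ranked on one part of the UMIs and compared on the other. Vim-balanced it was 0.11 at a mean of at least 20 CPM, 0.41 with at least 5 Epcam UMIs, 0.031 with no limit on acinar genes, 0.71 for overall quartiles crossed with Vim tertiles and 0.091 without the cells rich in other types' markers. The classical subtype median, Vim-balanced, was 0.062 with no limit on acinar genes and 0.074 in tertiles of the mesenchymal list. In the whole tumour without the islet-marker cells, Gcg, Ppy and Pcsk1n were at 0.40, 0.32 and 0.24 over all cells, and Ppy and Pcsk1n at 0.078 and 1.36 Vim-balanced. Without all cells rich in other types' markers, Gcg, Ppy and Pcsk1n were at 0.66, 0.20 and 0.22 over all cells, and Pcsk1n at 1.36 Vim-balanced. In the CD9hi library Ppy and Chga were at 0.13 and 0.86 over all cells, and Chga and Pcsk1n at 0.89 and 0.020 Vim-balanced without the islet-marker cells, and at 0.13, 0.86, 0.89 and 0.022 without all such cells. The alternatives without islet-marker cells, without other marker-rich cells, with strata of no, lower and upper Vim, and with Vim crossed with Epcam or the epithelial list were chosen after seeing the data.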
